A study of Homo sapiens with 20 samples.

Results

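Binding of BMAL1 and of HIF2α was compared in A498 cells carrying a control shRNA, and every called peak was placed in a class by whether the other factor had a peak at the same site. A peak was shared when it overlapped a peak of the other factor by at least 1 bp, and BMAL1 only or HIF2α only when it did not. The 2 control lists held 4711 of the 12171 peaks in the series. Of 2350 BMAL1 peaks, 588 were shared and 1762 were BMAL1 only, and of 2361 HIF2α peaks, 589 were shared and 1772 were HIF2α only. A498 is a kidney cancer line derived from a clear cell renal cell carcinoma. Cells of both groups were infected with lentivirus carrying a scrambled shRNA in the PLKO.1 vector (shCNT), were selected in puromycin and have the genotype label WT. Chromatin was recovered by CUT&RUN, in which an antibody tethers a nuclease that releases the DNA around its target, with a rabbit antibody to BMAL1 in 4 libraries and to HIF2α in 4 others. The labels give no circadian time, oxygen level or synchronisation. The study describes its CUT&RUN replicates as biological in one place and as technical in another, and gives 3 per condition where the labels list 4 libraries. The data hold 1 peak list for each group, attached to the first library of that group, and whether a list stands for that library or for several pooled ones is not given in the sources used here. Differences between the lists therefore could not be set against replicate spread, and the 95% intervals below cover counting error over peaks alone. Each list also sums over many cells, so both factors on the same DNA molecule and each factor in different cells cannot be told apart. No peak list of the IgG libraries was analysed here, and no expression was measured that would check the tissue label.

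BMAL1 and HIF2α both belong to the bHLH-PAS family of transcription factors, which bind DNA as heterodimers. BMAL1 pairs with CLOCK on the E-box CACGTG and drives the period and cryptochrome genes, whose products feed back to repress it. HIF2α, encoded by EPAS1, pairs with ARNT on the hypoxia response element (HRE), whose core is ACGTG or GCGTG, and is normally destroyed after recognition by the VHL protein, which is lost in most clear cell renal tumours and is not functional in A498 cells. An E-box holds the HRE core on both strands, so the letter in front of the core separates the 2 elements.

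The following windows reach 50 bp to either side of a summit (GRCh37, plus strand), with E-boxes and HRE cores on either strand in capitals. They are the strongest peaks of each class, by the deposited p-value, that hold the element named within this window and at most 30 bases of untranslated exon. The first were BMAL1 only peaks with an E-box.

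TEF intron (chr22:41777737-41777837): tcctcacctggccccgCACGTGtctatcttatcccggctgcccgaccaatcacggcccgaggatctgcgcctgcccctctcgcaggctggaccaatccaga
LINC01730 intron (chr20:3792498-3792598): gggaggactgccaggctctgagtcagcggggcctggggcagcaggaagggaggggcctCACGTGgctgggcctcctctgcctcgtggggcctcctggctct

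TEF encodes a clock-controlled leucine zipper factor, and its peak lay 159 bp from a TEF start. The next were HIF2α only peaks with an HRE core and no E-box, and the last of them was chosen after values were seen because it holds TACGTG, all 6 letters of which are in capitals (CACGTA on the plus strand).

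ALKBH5 intron (chr17:18086646-18086746): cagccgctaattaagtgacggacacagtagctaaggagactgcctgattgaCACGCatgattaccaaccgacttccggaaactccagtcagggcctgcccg
SEC61G start (chr7:54827020-54827120): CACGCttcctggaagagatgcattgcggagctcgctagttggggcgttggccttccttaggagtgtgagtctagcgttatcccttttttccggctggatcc
DNM2 intron (chr19:10859830-10859930): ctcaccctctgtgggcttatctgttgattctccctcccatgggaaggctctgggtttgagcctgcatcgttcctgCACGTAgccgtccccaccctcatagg

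ALKBH5 encodes an RNA demethylase, SEC61G a subunit of the channel that moves proteins into the endoplasmic reticulum, and DNM2 the GTPase dynamin 2. The first of the shared windows hold an E-box at the strongest shared BMAL1 peaks within these limits. LDHA, the subunit of lactate dehydrogenase, follows as the strongest shared HIF2α peak with an E-box in its window, also chosen after values were seen.

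RELL1 upstream (chr4:37688288-37688388): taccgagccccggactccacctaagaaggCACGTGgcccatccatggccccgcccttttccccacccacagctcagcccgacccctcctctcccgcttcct
BLOC1S3 upstream (chr19:45681765-45681865): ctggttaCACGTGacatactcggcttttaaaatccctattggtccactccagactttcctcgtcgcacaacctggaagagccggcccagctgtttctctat
LDHA upstream (chr11:18415885-18415985): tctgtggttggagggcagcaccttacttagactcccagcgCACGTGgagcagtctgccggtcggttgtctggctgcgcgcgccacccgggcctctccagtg

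Among shared HIF2α peaks with an HRE core and no E-box, the strongest within these limits lay at ZNHIT1 and DDIT4. ZNHIT1 is a subunit of a chromatin remodelling complex, and DDIT4 a stress-induced inhibitor of mTOR signalling. Shared HIF2α peaks near TGFA, at KDM4B and at CCN4 ranked above the one at DDIT4. They also held an HRE core and no E-box within 100 bp of the summit, but were outside these limits. The ZNHIT1 window holds TACGTG, read as CACGTA on the plus strand, and also the AP-1 site TGAGTCA.

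ZNHIT1 upstream (chr7:100861290-100861390): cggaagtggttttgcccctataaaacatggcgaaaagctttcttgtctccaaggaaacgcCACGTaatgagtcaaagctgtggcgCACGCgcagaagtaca
DDIT4 upstream (chr10:74033597-74033697): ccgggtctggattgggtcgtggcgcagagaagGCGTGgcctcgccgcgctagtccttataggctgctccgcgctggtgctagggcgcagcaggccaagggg

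The first question was how much of each list was shared. The shared peaks were 25.0% of the BMAL1 list (Wilson interval 23.3 to 26.8%) and 24.9% of the HIF2α list (interval 23.2 to 26.7%). Among the 1000 strongest peaks of each list the share was 14.7% of both (interval 12.6 to 17.0%). Both lists are cut there, so a strong peak whose partner ranks lower counts as not shared. Against the whole of the other list, 33.7% of BMAL1 and 28.6% of HIF2α peaks in the strongest quartile were shared. Merged across both lists, the peaks formed 4121 regions, of which 587 held both factors. The overlap was rarely marginal. It had a median of 192.5 bp with quartiles of 138 and 299.75 bp, and 525 of 590 overlapping pairs (89.0%) covered at least 50% of the shorter peak. The 23 pairs that overlapped by 50 bp or less had median strength percentiles of 43.1 for BMAL1 and 21.1 for HIF2α, where the percentile is the rank of a peak's deposited p-value in its own list and 100 is the strongest. Just outside the rule, 38 BMAL1 only and 38 HIF2α only peaks lay within 400 bp of the other factor, with median percentiles of 20.4 and 22.8. The median distance to the other factor's nearest peak was 175484 bp over all BMAL1 only and 185174 bp over all HIF2α only peaks.

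The distance between summits was measured at shared sites, where overlap of the peaks and the choice of the nearest summit already limit it. Each shared HIF2α peak was paired with the BMAL1 peak of nearest summit, which gave 589 pairs. The summits were a median of 100 bp apart (interval 91 to 109 bp), beside median peak widths of 289.5 bp for shared BMAL1 and 322 bp for shared HIF2α peaks, with quartiles of 42 and 196 bp and a maximum of 1600 bp. In 44 pairs they were within 10 bp, in 161 (27.3%) within 50 bp and in 449 (76.2%) within 200 bp. Pairs within 1 kb of an annotated transcription start, called promoter pairs here, had a median of 91 bp (n = 334, interval 81 to 102 bp), and distal pairs 116 bp (n = 255, interval 100 to 134 bp). The 61 pairs in which both peaks were in the top quartile of their list had a median of 71 bp (interval 62 to 91 bp). Pairs with an E-box in either summit window had a median of 109 bp (n = 95) and those with an HRE core and no E-box 97.5 bp (n = 346), each within the other's interval.

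**Figure D1:**
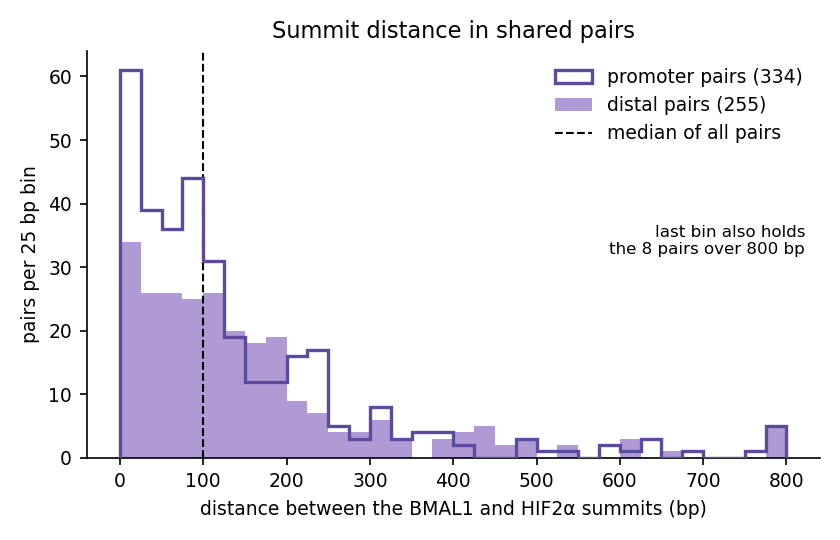
Number of shared pairs in bins of 25 bp (y axis) by the distance between the BMAL1 and HIF2α summits in bp (x axis), for 334 promoter pairs (outline) and 255 distal pairs (filled). The dashed line marks the median of all pairs, 100 bp, and 449 of the 589 pairs lie at 200 bp or less.

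Which of the 2 summits lay nearer to a motif differed with the motif. Among 117 pairs with an E-box within 200 bp of the midpoint of the summits, the BMAL1 summit was nearer to it in 71 and the HIF2α summit in 45, and the median distances were 74 and 97 bp. Among 463 pairs with an HRE core outside an E-box, the BMAL1 summit was nearer in 195 and the HIF2α summit in 262, with median distances of 74.5 and 60.5 bp. These offsets are below the width of the peaks, whose medians were 235 bp for BMAL1 and 275 bp for HIF2α.

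Strength was compared within each list, because the lists differed in depth. The median summit pileup, which is the number of fragments stacked at the summit, was 6 in the BMAL1 list and 8 in the HIF2α list, and the genome-wide background was 0.168 and 0.209 fragments. Shared BMAL1 peaks had a median percentile of 61.4 (interval 55.9 to 64.8) and BMAL1 only peaks 46.6 (interval 43.1 to 48.2), a difference of 14.7 (interval 9.05 to 19.6), which was 7.20 (interval 2.00 to 18.0) when both lists were limited to a -log10 p of at least 8. Their median pileups were 7 and 6 fragments. Shared HIF2α peaks had a median percentile of 54.8 (interval 50.4 to 58.8) and HIF2α only peaks 47.9 (interval 43.4 to 50.9), a difference of 6.96 (interval 1.62 to 12.9). Under the same limit the HIF2α difference did not stay clear of 0, at 2.12 (interval -6.24 to 7.64). By quartile of strength, the shared share of BMAL1 peaks was 15.4%, 23.9%, 26.6% and 33.7% from the weakest to the strongest, and that of HIF2α peaks 21.2%, 23.7%, 26.1% and 28.6%. The intervals of the weakest and the strongest quartile did not overlap in either list. Shared peaks were also wider than the others of their list, with medians that differed by 71.5 bp for BMAL1 (interval 55.8 to 90.7 bp) and 70 bp for HIF2α (interval 45.2 to 109 bp), and the part of width in the overlap was not tested.

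**Figure D2:**
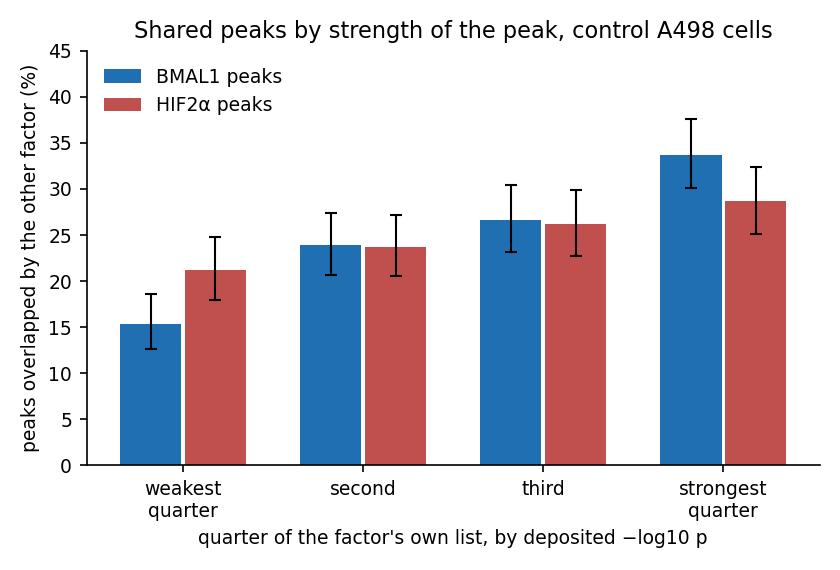
Percentage of peaks overlapped by the other factor (y axis) in quartile classes of each list by deposited -log10 p (x axis), for BMAL1 (blue) and HIF2α (red) peaks, with Wilson 95% intervals. The share runs from 15.4% to 33.7% for BMAL1 and from 21.2% to 28.6% for HIF2α.

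The top peak of each list was not shared, while the HIF2α peaks ranked 4, 5, 6, 7 and 9 were. The 10 BMAL1 peaks ranked above the best shared one were BMAL1 only, and 9 of them lay on coding exons of the BMAL1 gene itself, the other being at EEF1A1, a translation elongation factor. All 14 BMAL1 peaks inside the BMAL1 gene sat on coding exons and none was shared. Their local backgrounds ran from 10.2 to 87.3 fragments against a genome level of 0.168, and their pileups from 52 to 834, and the EEF1A1 peak had a background of 117. What raised the background there was not tested. Among BMAL1 only peaks whose background was within 3 times the genome level, a selection made after values were seen, the strongest lay at the starts of NR1D1 (chr17:38256628-38257563, pileup 47), the REV-ERBα repressor of the clock, TEF (pileup 31), CRY2 (chr11:45868603-45869053, pileup 30), a cryptochrome repressor, DKKL1 (pileup 19) and OSGIN1 (pileup 18). The strongest HIF2α peak, at the start of PGK1 (chrX:77359237-77359841, pileup 199), a glycolytic kinase, was HIF2α only. Its background of 5.24 fragments was above the genome level of 0.209, and vectors of the PLKO.1 type carry a PGK promoter, and the part of vector DNA in this peak was not tested. The HIF2α only peaks that followed had low backgrounds of 0.209 to 0.356 and lay in NMT1 (pileup 58), 2728 bp from the start of ADM (chr11:10328908-10331184, pileup 58), the vasodilator peptide adrenomedullin, at ALKBH5 (pileup 50) and in an intergenic region of chromosome 9 (pileup 54). All 5 strongest HIF2α only peaks held an HRE core and none an E-box in the summit window.

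The strongest shared peaks by BMAL1 were led by PER1 and DBP, and the HIF2α percentile ranged from 11.8 to 64.4 over the 5 of them. At PER1, a period repressor, the BMAL1 peak (chr17:8059534-8060649) ranked 11 in its list with a pileup of 84, and the HIF2α peak (chr17:8059582-8060296) was at the percentile of 59.8 with a pileup of 9. At DBP, a clock output factor of the same family as TEF, the BMAL1 pileup was 26 (chr19:49140659-49141568) and the HIF2α pileup 6, at a percentile of 11.8. In a non-coding exon 39601 bp from a start of TSC22D3, a glucocorticoid-induced regulator, the BMAL1 and HIF2α pileups were 21 and 5. That BMAL1 summit was 91 bp from another annotated start. At TMEM141 and RELL1, BMAL1 pileups of 20 and 17 stood beside HIF2α pileups of 6 and 8. The strongest shared peaks by HIF2α were led by an intergenic site 43047 bp from the start of TGFA (chr2:70823445-70824421), a growth factor, where the HIF2α pileup was 55 and the BMAL1 pileup 11. The summits of that pair were 2 bp apart. At ZNHIT1 the pileups were 59 for HIF2α and 7 for BMAL1. At LDHA they were 52 (chr11:18415389-18416390) and 9 (chr11:18415629-18415954), with summits 84 bp apart. At KDM4B, a histone demethylase, they were 51 and 13. At CCN4 on chromosome 8, a matrix-associated protein, they were 59 and 7.

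Across the 589 pairs the ranks of the factors had almost no monotone relation. Spearman's rho of the percentiles was 0.014, and that of the pileups 0.108, as descriptions over pairs that come from the same 2 lists and hold many tied values. Of the 204 pairs in the top BMAL1 quartile, 34, 56, 53 and 61 were in the HIF2α quartile classes from weakest to strongest. Over all 589 pairs these classes held 117, 149, 154 and 169. The BMAL1 percentile was the higher of the 2 in 324 pairs. The pairs with both peaks strongest lay at KDM4B (percentiles of 97.3 for BMAL1 and 99.7 for HIF2α), in the stress-induced pseudokinase gene TRIB3 (95.5 and 97.6), near TGFA (95.5 and 99.9), 25718 bp from the start of SEPTIN9 (98.2 and 95.02) and at IBA57 (96.9 and 94.2), whose product builds iron-sulphur clusters. The pairs furthest toward BMAL1 were an intronic site of CUEDC1 (91 against 0.466), the start of COX14, a cytochrome oxidase assembly factor (95.5 against 7.52), and an intronic site on chromosome 8 (87.9 against 0.0847). Those furthest toward HIF2α were intronic sites of ZNF395 (2.62 against 98.9), NEK6, a mitotic kinase (2.62 against 97.3), and CCN4 (5.32 against 99.7). None of the 3 pairs furthest toward BMAL1 held an E-box or an HRE core in either summit window, and all 3 furthest toward HIF2α held an HRE core in the HIF2α window.

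**Figure D3:**
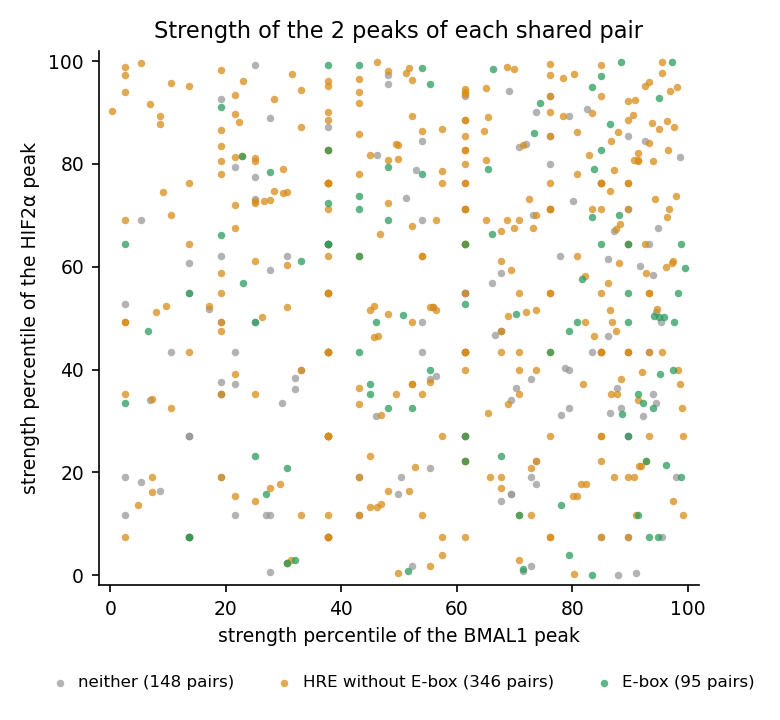
Strength percentile of the BMAL1 peak (x axis) and of the HIF2α peak (y axis) in the 589 shared pairs, coloured by whether either summit window held an E-box (95 pairs), an HRE core without an E-box (346) or neither (148). Points fill the whole square, and Spearman's rho is 0.014. Columns of points are tied percentiles.

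Motif content differed between the classes. Matches on either strand were counted within 100 bp of each summit, a window of 200 bp, beside windows 2 kb away on both sides and the same window at 55417 annotated starts of protein-coding genes, of which 5.41% held an E-box and 39.9% an HRE core outside an E-box. The E-box was present in 10.6% of BMAL1 only windows (186 of 1762) and 12.6% of shared BMAL1 windows (74 of 588), against 2.67% and 3.06% in their flanks. The difference of 2.03 percentage points had an interval that included 0 (-0.847 to 5.25). In HIF2α windows the E-box was present in 4.97% of HIF2α only peaks (88 of 1772) and 10.7% of shared peaks (63 of 589), a difference of 5.73 points (interval 3.22 to 8.63), and in distal peaks alone of 4.46 points (interval 1.27 to 8.69). The HRE core outside an E-box went the other way between the lists. It was present in 38.9% of BMAL1 only and 53.4% of shared BMAL1 windows, a difference of 14.5 points (interval 9.82 to 19.1), but in 65.3% of HIF2α only and 58.2% of shared HIF2α windows, a difference of -7.12 points (interval -11.7 to -2.60). The HIF2α difference was -11.8 points in distal peaks (interval -18.6 to -5.10) and -3.82 in promoter peaks (interval -10.1 to 2.26), and with windows of 400 bp it was -1.13 (interval -4.97 to 2.45). In distal BMAL1 only peaks the HRE core was as frequent as in flanks, at 26.6% against 25.0%.

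**Figure D4:**
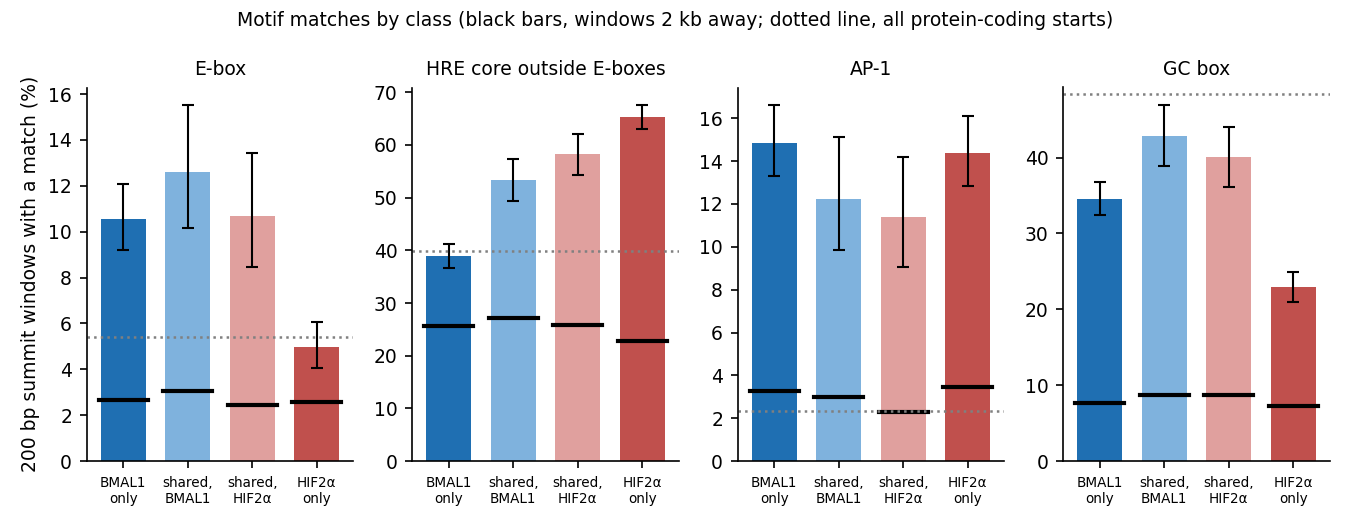
Percentage of 200 bp summit windows with at least 1 match (y axis) for 4 motifs in the 4 sets of peaks (x axis), with Wilson 95% intervals. Black bars give windows 2 kb away and the dotted line all protein-coding starts. The E-box is lowest in HIF2α only peaks (4.97%), and the HRE core rises from 38.9% in BMAL1 only to 65.3% in HIF2α only peaks. Each panel has its own scale from 0.

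Motifs of other factors were split differently. The AP-1 site TGACTCA or TGAGTCA, bound by FOS and JUN proteins, was present in 14.9% of BMAL1 only, 12.2% of shared BMAL1, 11.4% of shared HIF2α and 14.4% of HIF2α only windows, and in 2.36% of all starts. In distal peaks these shares were 22.7%, 22.7%, 20.8% and 21.5%, and the intervals of both differences included 0, at 0.0325 points for BMAL1 (interval -5.46 to 6.13) and -0.743 for HIF2α (interval -5.99 to 5.17). The GC box GGGCGG, bound by Sp1-type factors, was present in 34.6% of BMAL1 only and 42.9% of shared BMAL1 windows, and in 22.9% of HIF2α only and 40.1% of shared HIF2α windows, against 48.3% of all starts. The HIF2α difference was 17.2 points (interval 12.8 to 21.6), and 9.63 points in distal peaks (interval 5.22 to 14.9). Among the remaining motifs, ETS sites (CCGGAAG), cyclic AMP response elements (TGACGTCA), RUNX sites (AACCACA) and TEAD sites (CATTCC) were present in 4.01% to 6.13%, 0.454% to 1.53%, 4.94% to 5.95% and 14.4% to 15.9% of windows, and in 10.6%, 1.70%, 2.17% and 7.23% of all starts. In windows 2 kb away these shares were 0.709% to 1.36%, 0% to 0.170%, 3.02% to 3.65% and 9.68% to 11.5%. None of the differences of these motifs between shared and other peaks had an interval clear of 0.

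The classes also differed in the letter in front of the core. TACGTG was present in 28.8% of HIF2α only windows (510 of 1772), 15.7 times its share in their flanks, and in 14.9% of shared HIF2α windows (88 of 589), 6.12% of shared BMAL1 windows (36 of 588) and 0.908% of BMAL1 only windows (16 of 1762). The last value was below the 2.04% of its own flanks and the 2.14% of all starts. Over all BMAL1 peaks TACGTG was present in 2.21% (52 of 2350). BMAL1 only peaks are what remains after overlaps with HIF2α peaks, 25.3% of which held TACGTG, are taken out. The part of this rule in the low value was not tested. GACGTG was nearly as frequent in shared HIF2α windows (16.5%) as in HIF2α only windows (15.5%), while in BMAL1 windows it was present in 13.8% of shared and 5.39% of BMAL1 only peaks, against 6.14% of all starts. AACGTG, the reverse of the E-box variant CACGTT, was present in 9.18% of shared BMAL1, 5.39% of BMAL1 only, 7.47% of shared HIF2α and 7.11% of HIF2α only windows, against 3.31% of all starts. CACGTG was least frequent where TACGTG was most frequent, with 4.97% of HIF2α only windows against 10.7% of shared HIF2α, 12.6% of shared BMAL1 and 10.6% of BMAL1 only windows. The TACGTG contrast held away from promoters, with 33.9% of HIF2α only and 19.2% of shared distal HIF2α peaks, and at promoters, with 22.0% and 11.7%. For BMAL1 it was 1.18% of BMAL1 only and 5.88% of shared distal peaks, and 0.600% and 6.31% at promoters.

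The same counts were then read the other way, as the share of peaks that were shared by the word under the peak. HIF2α peaks with TACGTG were shared in 14.7% of cases (88 of 598, interval 12.1 to 17.8%), those with TGCGTG in 23.3% (59 of 253), with AACGTG in 25.9% (44 of 170), with GACGTG in 26.1% (97 of 371) and with the E-box in 41.7% (63 of 151, interval 34.2 to 49.7%), beside 24.9% over all HIF2α peaks. Of the remaining words, AGCGTG gave 30.9%, CGCGTG gave 29.0% and GGCGTG gave 28.9%. The difference between TACGTG and the E-box was -27.0 points (interval -35.4 to -18.8). HIF2α peaks with TACGTG were also the stronger ones, with a median percentile of 73.8 against 47.6 for E-box peaks. In BMAL1 peaks the E-box and TACGTG changed places. Those with TACGTG were shared in 69.2% of cases (36 of 52, interval 55.7 to 80.1%), with GACGTG in 46.0% (81 of 176), with AACGTG in 36.2% (54 of 149), with TGCGTG in 31.0% (53 of 171) and with the E-box in 28.5% (74 of 260, interval 23.3 to 34.2%), beside 25.0% over all BMAL1 peaks. The words AGCGTG with 30.6%, CGCGTG with 30.5% and GGCGTG with 28.4% were close to the E-box. Here TACGTG exceeded the E-box by 40.8 points (interval 26.1 to 52.8). A window can hold several of these words and then counts in each.

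By kind of element, shared shares of HIF2α peaks were 41.7% with an E-box, 21.5% with an HRE core and no E-box (302 of 1407) and 27.9% with neither (224 of 803). The first exceeded the second by 19.7 points at promoters (interval 8.92 to 30.6) and by 18.2 points in distal peaks (interval 7.38 to 30.7). For BMAL1 the shares were 28.5%, 31.1% (270 of 868) and 19.97% (244 of 1222). HRE-bearing BMAL1 peaks exceeded those with neither element by 5.82 points at promoters (interval 0.257 to 11.3) and by 14.9 points in distal peaks (interval 9.27 to 20.8). HIF2α peaks without either element were shared more often the stronger they were, from 19.7% in the weakest quartile (56 of 284) to 46.2% in the strongest (43 of 93), whereas those with an HRE core ranged from 19.3% to 24.0% over the quartile classes.

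**Figure D5:**
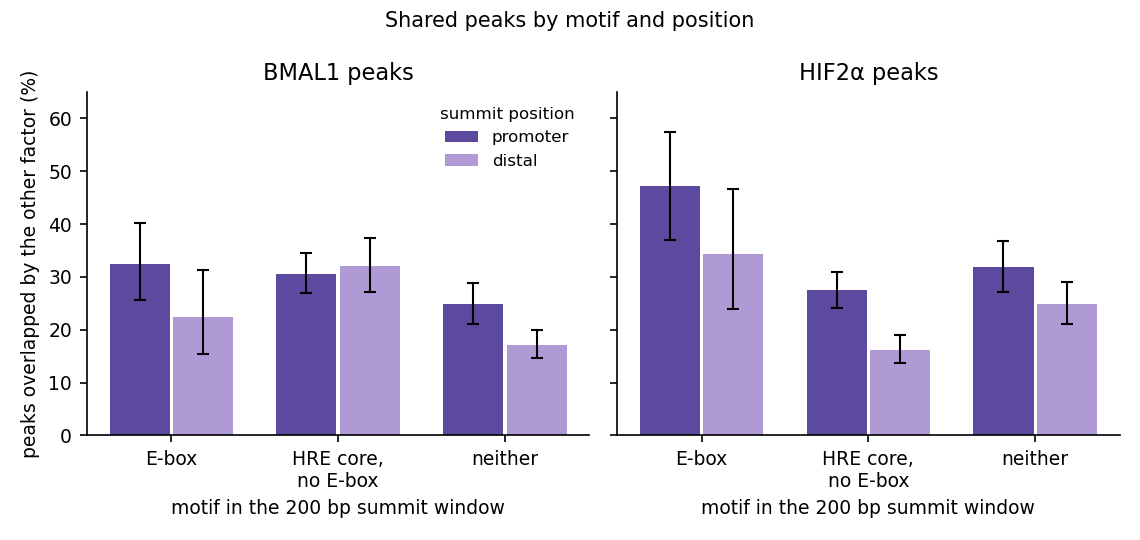
Percentage of peaks overlapped by the other factor (y axis) by the element in the 200 bp summit window (x axis), for BMAL1 peaks (left) and HIF2α peaks (right), with promoter summits dark and distal summits light. Bars carry Wilson 95% intervals. HIF2α peaks with an E-box are shared most, at 47.1% for promoters and 34.4% for distal sites, and distal HIF2α peaks with an HRE core least, at 16.2%.

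Shared sites lay nearer to transcription starts. The summit was within 1 kb of a start for 56.6% of shared BMAL1 peaks (333 of 588) and 47.3% of BMAL1 only peaks (833 of 1762), a difference of 9.36 points (interval 4.69 to 13.9). This was 56.7% of shared HIF2α peaks (334 of 589) and 43.1% of HIF2α only peaks (764 of 1772), a difference of 13.6 points (interval 8.94 to 18.2). Among the 1000 strongest peaks of each list the BMAL1 difference was 5.40 points, with an interval that included 0 (-3.34 to 13.7). The median distance to the nearest start was 418 bp for shared BMAL1, 1335 bp for BMAL1 only, 448 bp for shared HIF2α and 2144.5 bp for HIF2α only peaks. The median GC content of the windows was 58% and 56% for shared and BMAL1 only peaks, and 58.5% and 53% for shared and HIF2α only peaks. Away from promoters, introns held 26.0% of shared BMAL1 and 31.3% of BMAL1 only summits, and 25.8% of shared HIF2α and 35.0% of HIF2α only summits. Counted by gene, 1156 genes had a BMAL1 summit and 1060 a HIF2α summit within 1 kb of a protein-coding start, and 385 had both, which is 33.3% of the former and 36.3% of the latter. The share over all genes was not computed for this limit. With the wider limit of 10 kb around the gene, 12.7% of 19489 protein-coding genes had a BMAL1 peak and 11.3% a HIF2α peak.

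Genes were then read from lists of known function, each gene extended by 10 kb at both ends, and the lists were chosen with earlier results of these data known. Over all 19489 protein-coding genes, 12.7% had a BMAL1 peak, 11.3% a HIF2α peak and 3.75% a shared peak, and a gene's best peak had a median percentile of 54.0 for BMAL1 and 52.1 for HIF2α. The 12 clock genes all had a BMAL1 peak, with a median best percentile of 98.3. At 9 of them (BHLHE41, CIART, CRY1, CRY2, NR1D1, NR1D2, PER2, PER3 and TEF) HIF2α had no peak. Over all protein-coding genes, 1535 of the 2466 with a BMAL1 peak likewise had no HIF2α peak. HIF2α peaks lay at 25% of the clock genes against 11.3% of all genes. CRY1, the partner of CRY2 in repression, carried a BMAL1 only peak at its start (chr12:107487168-107487980, pileup 20), and PER2 one at its start (chr2:239197394-239197691, pileup 13). Shared peaks lay at PER1, DBP and BHLHE40, which encodes the clock repressor DEC1 and is also known as a HIF target. BHLHE40 was the clock gene with the strongest HIF2α peaks. Its promoter had pileups of 8 for BMAL1 (chr3:5020276-5020955) and 19 for HIF2α (chr3:5019851-5021036), and a site downstream of it 8 for BMAL1 (chr3:5028601-5028777) and 10 for HIF2α (chr3:5027131-5029137).

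Of the 20 glycolysis genes, 17 had a HIF2α peak and 9 a BMAL1 peak, 6 had a shared peak, 8 had HIF2α only and none BMAL1 only. Their median best percentile was 93.6 for HIF2α and 37.7 for BMAL1. The shared sites were at ENO1, GPI, LDHA, PDK1, PFKP and PKM. At GPI, the isomerase of the pathway, the HIF2α pileup was 43 (chr19:34849890-34850590) and the BMAL1 pileup 8 (chr19:34850084-34850410), and both windows held an E-box and several HRE cores. At PDK1, the kinase that inhibits pyruvate dehydrogenase, the pileups were 25 (chr2:173420300-173420865) and 8 (chr2:173420405-173420748), with the BMAL1 peak at a percentile of 21.6. At PKM, pyruvate kinase, they were 17 (chr15:72522807-72524192) and 5 (chr15:72523661-72523924). The summits of that pair were 958 bp apart, the largest distance of all promoter pairs. The BMAL1 peak was at a percentile of 22.3, with no E-box or HRE core in its window. The strongest HIF2α peak of PKM lay in an intron, was HIF2α only and had a pileup of 32. At ENO1, enolase, they were 10 and 5. Strong HIF2α only peaks lay at ALDOA (chr16:30076448-30077112, pileup 39), the aldolase, PGAM1 (chr10:99185814-99186022, pileup 24), the phosphoglycerate mutase, where the summit was 24 bp from a start of RRP12, and GAPDH (chr12:6641604-6644030, pileup 21), and none of these windows held an E-box.

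Of the 15 HIF target genes, some of which are also in the glycolysis list, 11 had a HIF2α peak, 7 a BMAL1 peak and 4 a shared peak, with median best percentiles of 94.3 and 61.4. The shared sites were at DDIT4 (pileup 42 for HIF2α at chr10:74033327-74033846 and 8 for BMAL1 at chr10:74033457-74033909), NDRG1 (16 and 12), a stress-response gene on chromosome 8, EGLN3 (22 and 4, at 112651 bp from its start), the oxygen-sensing prolyl hydroxylase, and TGFA (5 and 6). NDRG1 was the most even of these, with percentiles of 95.02 for BMAL1 and 86.8 for HIF2α. VEGFA, the angiogenic growth factor, had a HIF2α only peak at its promoter (chr6:43736787-43738307, pileup 21), and ANGPTL4, a regulator of lipoprotein lipase, had 3 HIF2α only peaks with a best percentile of 96.9. ADM and SLC2A1, the glucose transporter GLUT1, had peaks of both factors that did not overlap.

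Among 14 bHLH-PAS and oxygen-sensing genes, 5 had a BMAL1 peak, 4 a HIF2α peak and 1, EGLN3, a shared peak. These are 35.7%, 28.6% and 7.14% of them, against 12.7%, 11.3% and 3.75% of all genes. Their median length was 79.7 kb against 26.9 kb over all genes, and the part of length in the counts was not tested. The BMAL1 gene was among the 5 only through its coding-exon peaks of raised background. The shared EGLN3 peak was the intergenic one 112651 bp from the EGLN3 start, with a BMAL1 percentile of 13.6. EPAS1, which encodes HIF2α, had HIF2α only peaks with a best percentile of 78.3, ARNT a BMAL1 only peak at its start (61.4), and HIF1A separate peaks of both factors. No peak of either list lay at CLOCK, NPAS2 or VHL. Of 9 AP-1 genes, JUNB had a shared peak, with pileups of 6 for BMAL1 and 8 for HIF2α, and FOSL2 and JUN had HIF2α only peaks with best percentiles of 98.01 and 89.4. Of 85 ribosomal protein genes, 12 had a BMAL1 peak, 5 a HIF2α peak and 2 a shared peak, which are 14.1%, 5.88% and 2.35% of them and close to or below the shares over all genes.

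The lists labelled shBMAL1, from cells with an shRNA against BMAL1, gave a reading of the same sites in other libraries. The BMAL1 list of these cells held 4261 peaks against 2350 in control cells, and the HIF2α list 3199 against 2361. A BMAL1 peak of the shBMAL1 list overlapped 55.3% of shared HIF2α peaks (326 of 589) and 15.2% of HIF2α only peaks (269 of 1772). A HIF2α peak of the shBMAL1 list overlapped 61.1% of shared BMAL1 peaks (359 of 588) and 12.8% of BMAL1 only peaks (226 of 1762). For the same factor the classes lay closer. BMAL1 was found again at 55.4% of shared and 44.3% of BMAL1 only peaks. HIF2α was found again at 62.1% of shared and 53.7% of HIF2α only peaks. Of the shared HIF2α peaks, 223 (37.9%, interval 34.03 to 41.8%) were overlapped in both shBMAL1 lists. These libraries carried another shRNA and differed in depth, and which control library each list was called against is not given in the sources used here, so the part of a common control in these overlaps was not tested.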

How the data were processed

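CUT&RUN libraries of A498 cells with shCNT and an antibody to BMAL1 or HIF2α were grouped by their titles, and the members, gene lists and motifs were chosen with earlier results of these data known. The authors aligned reads to hg19 (GRCh37) with Bowtie2 2.5.3, removed duplicates with SAMtools 1.6 and sambamba, called peaks with MACS2 2.2.9.1 (p-value below 1e-05, gaps of up to 400 bp joined) and took out the hg19 blacklist with bedtools 2.31.1. Each deposited list gives per peak a fold, the linear ratio of summit pileup to local background with 1 added to both, and a p-value and q-value as −log10. A deposited whole-number score and the q-value were not used. Spike-in normalised signal was not analysed here.

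Starts were shifted to count from 1. Pileup and background were solved from the fold and p-value, and for every peak a whole-number pileup gave back the deposited −log10 p to within 0.00061. Strength was the percentile of the deposited −log10 p within a list, with ties averaged. Intervals are at 95%, by Wilson's method for shares, Newcombe's for their differences and order statistics for medians. No p-value was computed, since peaks are not replicates. Starts and exons came from basic transcripts of GENCODE release 44 mapped to GRCh37. Regions named are the 5 strongest of each class, the 5 pairs with the highest lower percentile, the 3 pairs furthest apart in each direction and peaks of the gene lists, with exceptions stated. No window on chromosome 8 was printed. Overlap, decoding, motif search and intervals were tested on simulated data. Python 3.11.15, numpy, scipy, pandas and pysam were used.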

Additional observations from a re-analysis of the deposited data

How the results depend on the processing

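No paired analysis was possible because each group has 1 peak list, which carries no replicate number, and for the same reason no library could be left out. Over 13 settings, 97 alternative values were computed, 77 of them inside the interval of the reported value and 20 outside it, and no difference that was clear of 0 changed sign. The alternatives for TACGTG were chosen after seeing the data. Of 65 alternative values of differences that were clear of 0 as reported, 57 stayed clear of 0.

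With a -log10 p of at least 8 in both lists, the shared share was 21.1% of BMAL1 and 17.6% of HIF2α peaks, the summit distance 89 bp, the BMAL1 percentile difference 7.20, the HRE difference of HIF2α peaks -13.4 points and the TACGTG difference -21.8 points. With the 1000 strongest peaks of each list, the shared share was 14.7% of both, the summit distance 80 bp, the E-box difference of BMAL1 peaks -2.86 points, the promoter difference of HIF2α peaks 18.2 points and the TACGTG difference -21.6 points. With an overlap of at least 50% of the shorter peak, 22.3% of BMAL1 and 22.2% of HIF2α peaks were shared, and with summits within 200 bp 19.6% and 19.5%, at a summit distance of 78 bp that the setting itself limits. Windows of 400 bp gave an HRE difference of -1.13 points and windows of 100 bp a TACGTG difference of -7.54 points, and distal peaks alone gave an HRE difference of -11.8 points. Causes of these changes were not tested. The HIF2α percentile difference reached 0 within its interval with a -log10 p of at least 8, the 1000 strongest peaks, summits within 200 bp and peaks within 400 bp, the HRE difference with windows of 100 bp (-3.01) or 400 bp and at promoters (-3.82), and the BMAL1 promoter difference with the 1000 strongest peaks (5.40). A median pileup of 6 or 8 fragments limits what a missing overlap shows, since a site of the other factor below the caller's limit counts as not shared.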
